A study of Mus musculus with 6 samples.

Results

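The activator protein 1 (AP-1) and BATF genes of type-2 innate lymphoid cells (ILC2s) were followed by RNA-seq in cells cultured with or without an agonist of GITR. The rule took every gene whose symbol was Fos, Fosb, Fosl1, Fosl2, Jun, Junb, Jund, Batf, Batf3 or Atf3, which gave 10 genes of the 53278 listed in the deposited table. ILC2s were sorted from the visceral adipose tissue of C57BL/6 mice aged 8 weeks that had received 3 intraperitoneal injections of 1 µg IL-33. The sorted cells were then cultured with IL-2 (10 ng/mL) and IL-7 (10 ng/mL) and either an isotype control antibody or DTA-1 (5 µg/mL), which binds and activates GITR. Both groups therefore shared the IL-33 injections and the cytokines of the culture, and by the study's text only the antibody differed. The control libraries are titled isotype, whereas their deposited counts are headed PBS-GITR. Each group had 3 libraries. The labels give 48 h of culture, the study's text also gives a shorter time in another place, and neither says whether replicates came from separate mice or pools. The p-values thus measure the spread between these libraries, which may be technical.

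AP-1 is a family of dimers whose subunits hold a basic region that touches DNA and a leucine zipper that joins the partners. JUN proteins pair with each other or with FOS proteins, whereas FOS proteins need a JUN partner, and the dimers bind the site TGANTCA in promoters and enhancers. BATF and BATF3 are short members of the family without a transactivation domain of their own. They pair with JUN proteins and bind composite sites together with the interferon regulatory factors IRF4 and IRF8, and in lymphocytes BATF and JUNB are known for their part in the expression of type 2 cytokines. Fos, Jun, Junb and Atf3 are immediate-early genes, switched on within minutes of a signal through MAP kinases and often shut off again soon afterwards. The comparison asked which of these genes stood at another level after prolonged engagement of GITR. In bulk RNA a lower level per cell and fewer cells with the transcript cannot be told apart.

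The libraries held between 30569351 and 35131329 expected counts. DTA-1 replicate 1 lay nearer to the isotype control libraries than to the other libraries of its own group. The chi-square per degree of freedom between the counts of a pair of libraries was 10.1 to 11.9 between this library and isotype control and 29.0 to 30.5 between this library and DTA-1 replicates 2 and 3. Between isotype control libraries it was 12.0 to 18.4. The library was kept under its label, and values without it stand beside those with it. Each library was left out in turn, but this fit was singled out because of the expression values themselves. Leaving this library out favours a difference between the groups. The p-values and counts of calls without it are therefore a description and no independent test. The ILC2 genes Gata3 (1525 to 1716 normalized counts), Il1rl1, which encodes the IL-33 receptor ST2 (1022 to 1286), and Il7r (84.4 to 108) were present in all 6 libraries.

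Of the 10 genes, 8 passed the filter on low counts and were tested, and 5 of them had a higher and 3 a lower fitted level with DTA-1. Values are normalized counts (CPM after TMM scaling). The log2FC is the log2 ratio of DTA-1 to isotype control with its standard error (SE), and a gene was called where it reached 1.5-fold with an adjusted p below 0.05. With all 6 libraries 0 of the 8 genes were called by edgeR (smallest edgeR adjusted p = 0.627), against 0% of the 14361 genes tested, and 0 of 8 were called by DESeq2's Wald test, against 0.152%. At an unadjusted p under 0.05 there was 1 gene, Junb, against 7.22% of all genes. None of the 8 reached an unadjusted p under 0.05 together with 1.5-fold, a mark that 2.35% of all genes reached. In 0 of the 8 genes were the groups fully apart, which was so for 11.3% of all genes. The median log2FC was 0.06 over the 8 genes and −0.01 over all genes tested. Without DTA-1 replicate 1, Junb was called, 1 of 8 genes against 0.744% of 14911 genes tested. Junb was also the 1 gene of the 8 with an adjusted p under 0.05 at any fold, against 1.7% of all genes. In 2 of the 8 genes, Junb and Fos, the groups were then apart, against 31.2% of all genes.

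**Figure D1:**
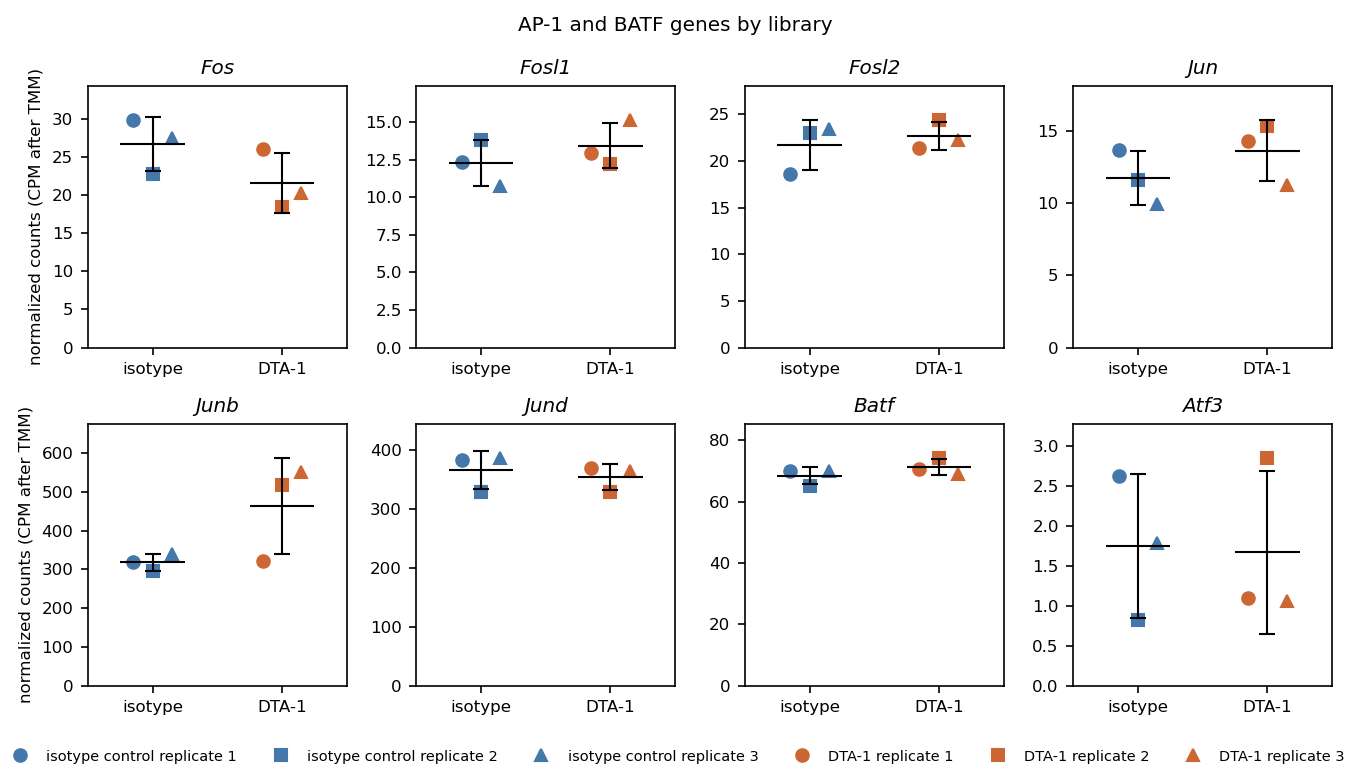
Normalized counts (CPM after TMM, linear axes from 0) of the 8 tested genes in each library, with isotype control in blue and DTA-1 in orange; the symbol gives the replicate number, and the black line and bar are the mean ± SD of 3 libraries. Junb in DTA-1 replicates 2 and 3 stands above all other libraries, at 517 and 551, while DTA-1 replicate 1, at 321, lies among the isotype control libraries.

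Junb encodes a JUN protein that is a weaker activator than c-JUN and is prominent in type 2 helper T cells. The gene lies on chromosome 8 (84974484 to 84978718, minus strand, GRCm38). Its normalized counts were 319.5, 296 and 339.9 with isotype control and 321, 517 and 551 with DTA-1, in the order of the replicate numbers, as for all genes here. DTA-1 replicates 2 and 3 were above every isotype control library and replicate 1 was not, so that the groups overlapped. The means were 318 ± 22.2 in isotype control and 463 ± 124 with DTA-1 (SD, n = 3 each). The log2FC was 0.54 (SE 0.16, 95% confidence interval 0.18 to 0.90, edgeR adjusted p = 0.627 and unadjusted p = 0.00682), and the interval of the change runs from 1.14-fold to 1.86-fold. Without DTA-1 replicate 1, the fitted log2FC of Junb was 0.75 (SE 0.07, edgeR adjusted p = 0.000610, where the adjusted p of all alternatives lay between 0.000610 and 0.999). This is 1.68-fold, with an interval of 1.51-fold to 1.87-fold. Leaving out DTA-1 replicate 3 instead gave a log2FC of 0.40. The 3′ end of Junb shares 351 bases with Prdx2 on the opposite strand, and whether counting used strand is not given in the sources used here. Prdx2, a peroxidase gene, had 180.2 to 195 normalized counts in isotype control and 162 to 189.9 with DTA-1, with a log2FC of −0.04 (edgeR adjusted p = 0.936).

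The 250 bases before the RefSeq start of Junb and of Fos are shown because these are the 2 genes whose DTA-1 replicates 2 and 3 lay outside isotype control, in opposite directions, and those of Jun because it is the 1 of 9 with a match to a site of the AP-1 kind. They are from RefSeq on GRCm38.p6, 5′ to 3′ on the strand of the gene, at chr8:84978749-84978998 (minus), chr12:85473640-85473889 (plus) and chr4:95052223-95052472 (minus). Capitals mark the matches to the motifs searched.
Junb: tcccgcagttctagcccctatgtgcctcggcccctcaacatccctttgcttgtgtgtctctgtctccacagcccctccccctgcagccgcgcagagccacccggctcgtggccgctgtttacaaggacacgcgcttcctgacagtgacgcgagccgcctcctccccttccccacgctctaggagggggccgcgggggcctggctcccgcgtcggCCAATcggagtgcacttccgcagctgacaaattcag
Fos: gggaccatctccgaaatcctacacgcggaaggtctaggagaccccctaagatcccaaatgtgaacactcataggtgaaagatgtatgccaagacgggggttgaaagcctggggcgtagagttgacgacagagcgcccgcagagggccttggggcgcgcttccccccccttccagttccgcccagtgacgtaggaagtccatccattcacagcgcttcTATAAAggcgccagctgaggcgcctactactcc
Jun: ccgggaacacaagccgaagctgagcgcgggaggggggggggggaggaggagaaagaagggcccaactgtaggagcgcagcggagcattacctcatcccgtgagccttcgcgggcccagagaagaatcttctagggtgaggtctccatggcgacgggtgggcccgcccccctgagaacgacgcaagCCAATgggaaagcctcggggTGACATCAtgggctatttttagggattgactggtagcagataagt
A RefSeq promoter was found for 9 of the 10 genes. The motifs searched on both strands were TGANTCA (the AP-1 site), TGACATCA (a variant of it), TGACGTCA (the cAMP response element), the NF-κB site, the CArG box of serum response factor, TTCNNNGAA (STAT), CCAAT and TATAAA. The forms TGANTCA, TGACATCA and TGACGTCA share letters but no match to one is a match to another. Junb had a CCAAT match 36 to 32 bases before its start, and such a match stood in 33.8% of all 32851 promoters of this length. Fos had TATAAA 33 to 28 bases before its start (12.4% of all promoters). Jun had TGACATCA 45 to 38 bases before its start (2.93% of all promoters) and CCAAT 65 to 61 bases before it. Batf3 had TTCNNNGAA (7.02% of all promoters). None of the 9 windows held TGANTCA, TGACGTCA, an NF-κB site or a CArG box, which stood in 6.75%, 1.55%, 0.98% and 1.47% of all promoters. A missing match says only that these letters are not in this window. The RefSeq and the deposited starts were not the same for all genes, and they lay farthest apart for Atf3 and Jund. For Atf3 the RefSeq start was at 191183333 and the deposited start at 191218039, and for Jund they were at 70697739 and 70698949. For Fosl2 they were at 32136472 and 32135801, and for Batf3 at 191098414 and 191097847. The windows of these genes thus do not stand at the start of the deposited gene. Those of Atf3, Fosl2 and Batf3, with the TTCNNNGAA match of Batf3, lie inside the deposited gene.

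Jund encodes the JUN protein that is made in resting cells and is no immediate-early gene. It lies on the same chromosome as Junb, 14.3 Mb away (70698949 to 70700616, plus strand). It had 383, 329 and 386 normalized counts in isotype control and 369.5, 328 and 364 with DTA-1. The groups lay across each other, with means of 366 ± 32.1 and 354 ± 22.4 (SD, n = 3 each). The log2FC of Jund was −0.05 (SE 0.08, edgeR adjusted p = 0.929), and its interval, 0.859-fold to 1.09-fold, lies inside 1.5-fold in either direction. The interval of Jund shared no value with that of Junb, although the difference between the 2 genes was not tested. The deposited gene starts 1210 bases downstream of the RefSeq start and overlaps Gm11175 on the other strand over 919 bases, where Gm11175 had 10.7 to 17.7 normalized counts.

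Jun, the gene of c-JUN (chromosome 4, 95049034 to 95052222, minus strand), was far below its relatives. Its normalized counts were 13.7, 11.6 and 9.92 in isotype control and 14.3, 15.3 and 11.3 with DTA-1. Replicates 1 and 2 of DTA-1 were above all isotype control libraries and replicate 3 was not. The means were 11.7 ± 1.88 and 13.7 ± 2.11 (SD, n = 3 each), with a log2FC of 0.22 (SE 0.18, 95% confidence interval −0.17 to 0.61, edgeR adjusted p = 0.824). The antisense gene Junos overlaps Jun over 689 bases and had at most 0.320 normalized counts.

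**Figure D2:**
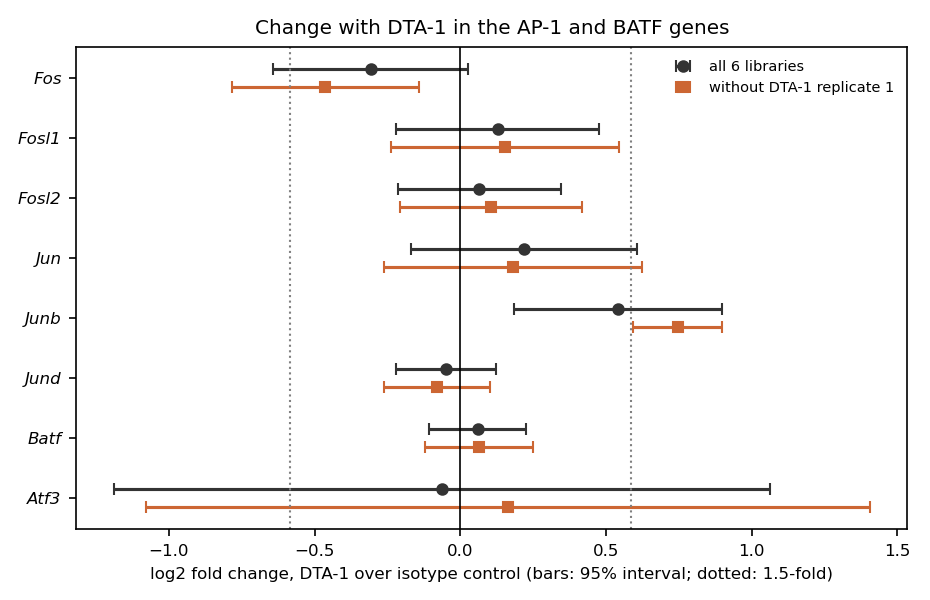
Log2 fold change of DTA-1 over isotype control for the 8 tested genes, with all 6 libraries (black) and without DTA-1 replicate 1 (orange); bars are 95% confidence intervals and dotted lines mark 1.5-fold. Junb is at 0.54 and 0.75 and Fos at −0.31 and −0.46, Jund and Batf have short intervals around 0, and the interval of Atf3 reaches beyond 1.5-fold on both sides.

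Fos encodes c-FOS, the founding FOS protein (chromosome 12, 85473890 to 85477273, plus strand). It had 29.8, 22.8 and 27.4 normalized counts in isotype control and 26.0, 18.5 and 20.3 with DTA-1. DTA-1 replicates 2 and 3 lay below all isotype control libraries and replicate 1 among them, which is the pattern of Junb turned around. The means of Fos were 26.7 ± 3.58 and 21.6 ± 3.94 (SD, n = 3 each), a log2FC of −0.31 (SE 0.15, 95% confidence interval −0.64 to 0.03, edgeR adjusted p = 0.717). Without DTA-1 replicate 1 the log2FC was −0.46 (SE 0.14, interval −0.78 to −0.14, edgeR adjusted p = 0.177, with 0.177 to 0.999 over all alternatives). Fos thus did not pass the test with or without that library. The interval reaches down to 0.641-fold with all libraries and to 0.581-fold without DTA-1 replicate 1. Both leave room for a fall of more than 1.5-fold.

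The other FOS genes did not separate the groups. Fosl1, the gene of FRA-1 (chromosome 19, 5447703 to 5455945), had 12.4, 13.8 and 10.7 normalized counts in isotype control and 12.9, 12.2 and 15.1 with DTA-1, with a log2FC of 0.13 (SE 0.16, edgeR adjusted p = 0.897). Fosl2, the gene of FRA-2 (chromosome 5, 32135801 to 32157842), had 18.6, 23.0 and 23.5 in isotype control and 21.4, 24.4 and 22.3 with DTA-1. Its log2FC was 0.07 (SE 0.13, edgeR adjusted p = 0.942). For both genes the interval lay inside 1.5-fold in either direction, from 0.859-fold to 1.39-fold for Fosl1 and from 0.862-fold to 1.27-fold for Fosl2. Fosb (chromosome 7, 19302696 to 19310051), an immediate-early gene of the same family, had 7 counts in isotype control replicate 2 and 0 counts in the other 5 libraries. It was removed by the filter. A count of 0 allows up to 3 counts, or 0.0848 to 0.0970 normalized counts in these libraries, and this limit covers counting error only.

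Batf was the steadiest of the 8 genes by its standard error. It lies on chromosome 12 (85686669 to 85709087, plus strand), 209 kb from Fos, with the bZIP gene Jdp2 between them. Its normalized counts were 70.1, 65.2 and 70.1 in isotype control and 70.7, 74.2 and 69.2 with DTA-1. The libraries of the groups overlapped, with means of 68.5 ± 2.81 and 71.4 ± 2.59 (SD, n = 3 each). The log2FC of Batf was 0.06 (SE 0.08, edgeR adjusted p = 0.902), its interval ran from 0.928-fold to 1.17-fold, and over all alternatives it stayed between 0.02 and 0.08. Batf3 (chromosome 1, 191097847 to 191108945), which is known for its part in a lineage of dendritic cells, had 4 counts in isotype control replicate 1 and 0 counts in the other 5 libraries, and was removed by the filter. Of the 4 dendritic cell genes Xcr1 had 44.4 to 47.7 normalized counts over the 6 libraries, Zbtb46 0.480 to 1.14 in isotype control and 1.22 to 2.43 with DTA-1, Flt3 at most 0.340 and Clec9a 0 counts. The part of dendritic cells in the few counts of Batf3 was not tested.

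Atf3, a stress-induced gene whose protein often represses transcription, lies 61.4 kb from Batf3 (chromosome 1, 191170296 to 191218039, minus strand). Its counts were 93, 29 and 63 in isotype control and 34, 89 and 34 with DTA-1, which is 2.63, 0.827 and 1.79 against 1.10, 2.85 and 1.07 normalized counts. The highest library was one of DTA-1 and the lowest one of isotype control, and the spread inside each group was as wide as that between them. The log2FC of Atf3 was −0.06 (SE 0.51, 95% confidence interval −1.19 to 1.06, edgeR adjusted p = 0.987). It ranged from −0.68 without DTA-1 replicate 2 to 0.36 without isotype control replicate 1. Its interval runs from 0.439-fold to 2.09-fold and thus covers changes of more than 1.5-fold in either direction.

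Between genes, levels were compared as RPKM, that is normalized counts per kilobase of merged exons. Jund was highest with a mean of 216 RPKM over the 6 libraries (196.8 to 231), followed by Junb with 169.8 (128 to 239) and Batf with 49.7 (46.4 to 52.8). The FOS genes and Jun came lower, with Fos at 10.3 (7.84 to 12.7), Fosl1 at 6.32 (5.27 to 7.44), Jun at 3.98 (3.11 to 4.81) and Fosl2 at 2.29 (1.92 to 2.52). Atf3 had 0.794 RPKM (0.384 to 1.32). Of the neighbours in this order only Jund with Junb, and Batf3 with Fosb at the bottom, overlapped in their ranges. The order depends on the gene lengths used, since exons that a cell does not use lower the RPKM of a gene. With the genomic span as length, Batf moved from 49.7 to 3.12 RPKM and from the third place to the fifth, below Fos (7.13) and Jun (3.98). Junb moved to 92.3 and Jund stayed at 216. The genomic span includes introns, so this setting does not test the effect of unused exons.

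**Figure D3:**
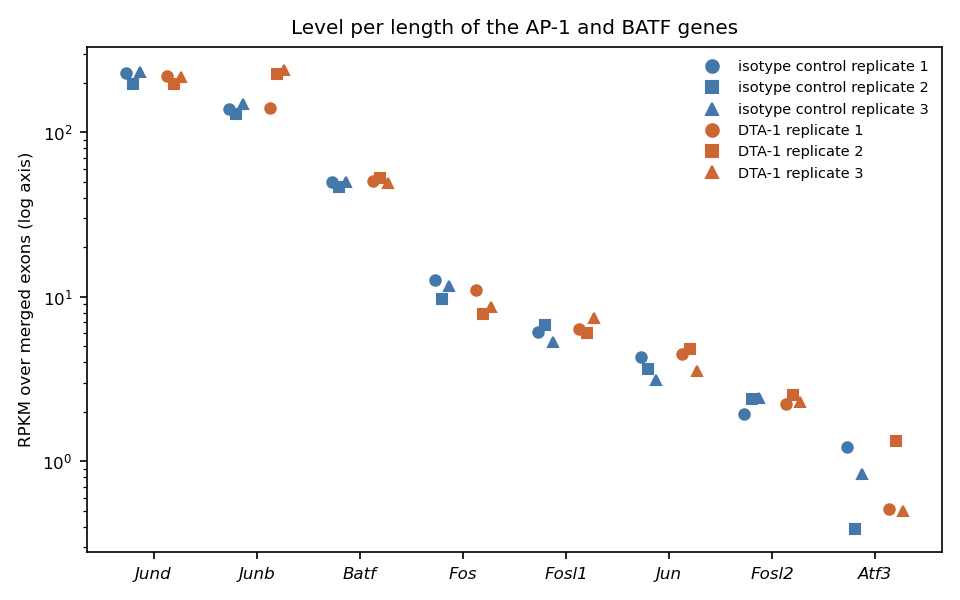
RPKM over merged exons (log axis) of the 8 tested genes, ordered by their mean over the 6 libraries, with isotype control in blue, DTA-1 in orange and the replicate number as the symbol. By this length Jund, Junb and Batf stand above the FOS genes, Jun and Atf3 in every library. Junb reaches the level of Jund in DTA-1 replicates 2 and 3. With the genomic span as length, which includes introns, neither holds for Batf and Junb. Fosb and Batf3, at 0 in 5 libraries each, are not drawn.

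Ratios within a library do not depend on scaling between libraries. The JUN genes made up 83.4% to 84.5% of the summed RPKM of the 10 genes in isotype control and 83.9%, 85.8% and 87.1% with DTA-1. Within the JUN genes Junb held 37.2%, 39.0% and 38.6% in isotype control and 38.2%, 52.7% and 51.9% with DTA-1. By this length Junb was the larger part of JUN transcripts in DTA-1 replicates 2 and 3 and Jund in the other 4 libraries, whereas with the genomic span as length, a setting added after the data were seen, Jund was the larger part in all 6. Junb then held 24.4%, 25.8% and 25.5% in isotype control and 25.1%, 37.7% and 37.0% with DTA-1, so that the same 2 libraries stood above the others. The ratio of Junb to Jund in normalized counts was 0.834, 0.898 and 0.881 in isotype control and 0.870, 1.58 and 1.51 with DTA-1. The ratio of Junb to Fos was 10.7, 13.0 and 12.4 in isotype control and 12.4, 28.0 and 27.2 with DTA-1. In both ratios the groups overlapped through DTA-1 replicate 1 alone. An exact permutation test of 3 against 3 libraries cannot give a two-sided p below 0.1, and none was run on these ratios.

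**Figure D4:**
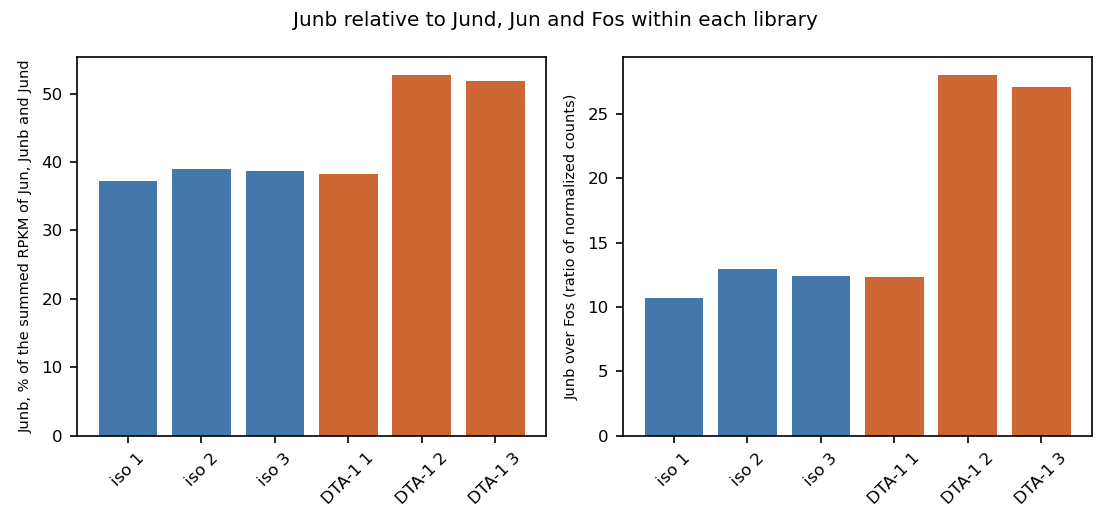
Junb as a percentage of the summed RPKM (merged exons) of Jun, Junb and Jund (left) and the ratio of Junb to Fos in normalized counts (right), 1 bar per library from 0, with isotype control (iso) in blue and DTA-1 in orange. DTA-1 replicates 2 and 3 reach 52.7% and 51.9% on the left (37.7% and 37.0% with the genomic span as length) and 28.0 and 27.2 on the right, and DTA-1 replicate 1 is level with the isotype control libraries.

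The genes around AP-1 were read as lists, described by their counts and medians beside those of all genes. Of 41 other genes of the bZIP class 31 were tested, 12 with a higher and 19 with a lower fitted level, and the median log2FC was −0.03. By edgeR 0 of the 31 were called, with or without DTA-1 replicate 1, and 5 had an unadjusted p under 0.05 (7.22% of all genes). Maff, a small MAF protein gene that partners other bZIP proteins, had 5.12, 4.88 and 5.39 normalized counts in isotype control and 6.89, 9.26 and 8.53 with DTA-1. All 3 DTA-1 libraries lay above isotype control, including replicate 1. The log2FC of Maff was 0.68 (SE 0.19, edgeR adjusted p = 0.627), and without DTA-1 replicate 1 it was 0.79 (edgeR adjusted p = 0.0893). Creb3l2, the gene of a membrane-bound factor of the secretory pathway, had a log2FC of 0.35 with all libraries and 0.45 without DTA-1 replicate 1 (edgeR adjusted p = 0.627 and 0.0188), short of 1.5-fold. Jdp2, whose protein competes with FOS for JUN partners, had 98.5 to 106 normalized counts in isotype control and 93.2 to 102 with DTA-1, with a log2FC of −0.06 (SE 0.07, edgeR adjusted p = 0.897). Nfil3 and Bach2, which act in the development and restraint of lymphocytes, had log2FC values of −0.15 each (edgeR adjusted p = 0.789 and 0.896). Batf2 had 1 count in DTA-1 replicate 1 and 0 counts elsewhere.

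All 5 partners at composite sites were tested and 0 were called (0 at an unadjusted p under 0.05), and their intervals all lay inside 1.5-fold. Irf4, which binds next to BATF and JUN at such sites, had 16.1, 22.2 and 19.4 normalized counts in isotype control and 15.7, 21.6 and 20.3 with DTA-1. The groups of Irf4 lay over each other (log2FC 0.00, SE 0.16, edgeR adjusted p = 0.999). Irf8 had 30.7 to 35.6 in isotype control and 35.1, 27.1 and 27.1 with DTA-1, with a log2FC of −0.14 (edgeR adjusted p = 0.843). Batf had 2.94 to 4.36 times the normalized counts of Irf4 in isotype control and 3.40 to 4.52 times in DTA-1. For Nfatc1, the NFAT gene with the smallest p, the log2FC was −0.04 (edgeR adjusted p = 0.928).

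Of 40 genes of the MAP kinase cascade that leads to AP-1, 38 were tested, 21 with a higher and 17 with a lower fitted level. The median log2FC was 0.02, 0 were called and 6, all with a higher fitted level, had an unadjusted p under 0.05 (7.22% of all genes). Map3k4, a kinase upstream of p38 and JNK, had 25.9, 30.7 and 24.6 normalized counts in isotype control and 31.5, 36.9 and 33.3 with DTA-1, with all DTA-1 libraries above isotype control (log2FC 0.32, SE 0.12, edgeR adjusted p = 0.632). Mapkapk2, a kinase downstream of p38, was at 0.24 and, without DTA-1 replicate 1, at 0.35 (edgeR adjusted p = 0.655 and 0.0126), short of 1.5-fold. Mapk8, the gene of JNK1, had few counts and a log2FC of −0.38 (SE 0.26, edgeR adjusted p = 0.784). Map3k8 and Mapk14, the genes of TPL2 and p38α, were at −0.07 and −0.04 (edgeR adjusted p = 0.919 and 0.942). All 10 genes of a list on the turnover of JUN and FOS proteins had intervals inside 1.5-fold and 0 were called (0 at an unadjusted p under 0.05). The smallest p there was that of Ddb1, a subunit of a ubiquitin ligase, with a log2FC of 0.14 (edgeR adjusted p = 0.740), followed by the ligase gene Itch with 0.18 (edgeR adjusted p = 0.771).

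A list of 20 genes with well-studied AP-1 sites held 16 tested genes, 13 of them with a higher fitted level, and its median log2FC was 0.21. By edgeR 0 of the 16 were called and 5 had an unadjusted p under 0.05, against 7.22% of all genes. Without DTA-1 replicate 1, 4 of 17 were called, all higher, against 0.744% of all genes (87 higher and 24 lower): Csf2, Il5, Mmp9 and Tnf. These genes also have NF-κB sites or other inputs, and their levels say nothing of which factor acted. The list was chosen with earlier results of these data known, and the study reports Il5, Il13 and Csf2 of it as induced in the same data. The counts of this list beside those of all genes are thus a description and no test. DESeq2's Wald test with all libraries called 1 of 17 genes of this list, against 0.152% of the 16435 genes tested. It was Mmp9, the gene of a matrix protease (DESeq2 adjusted p = 0.0450), and 0 genes of the other lists around AP-1 were called. Mmp9 had 0.594, 0.969 and 0.425 normalized counts in isotype control and 1.07, 16.5 and 19.8 with DTA-1, and Csf2, the GM-CSF gene, had 273, 271 and 279 against 269, 658 and 546. As with Junb, DTA-1 replicates 2 and 3 of both genes stood far above replicate 1. Tnf had 9.89, 6.67 and 7.34 normalized counts in isotype control and 10.2, 19.8 and 16.2 with DTA-1, with a log2FC of 0.95 (SE 0.24, edgeR adjusted p = 0.627) and 1.18 without DTA-1 replicate 1 (edgeR adjusted p = 0.0187). For Il5, the eosinophil cytokine gene, the log2FC values were 0.60 and 0.80 (edgeR adjusted p = 0.627 and 0.000115). Of 16 other immediate-early genes 15 were tested, 12 with a higher fitted level and a median of 0.19, and 0 were called with or without DTA-1 replicate 1 (3 at an unadjusted p under 0.05 with all libraries, against 7.22% of all genes). Egr1, a zinc finger gene induced through the same kinases as Fos, had 67.1, 65.7 and 72.1 normalized counts in isotype control and 84.8, 103 and 92.5 with DTA-1. In Egr1, in contrast to Junb and Fos, DTA-1 replicate 1 also lay above isotype control (log2FC 0.45, SE 0.09, edgeR adjusted p = 0.491). Without that library the log2FC of Egr1 was 0.52 (edgeR adjusted p = 0.0144), short of 1.5-fold. Ier2 had a log2FC of 0.30 and, without that library, 0.40 (edgeR adjusted p = 0.627 and 0.0136), short of 1.5-fold.

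**Figure D5:**
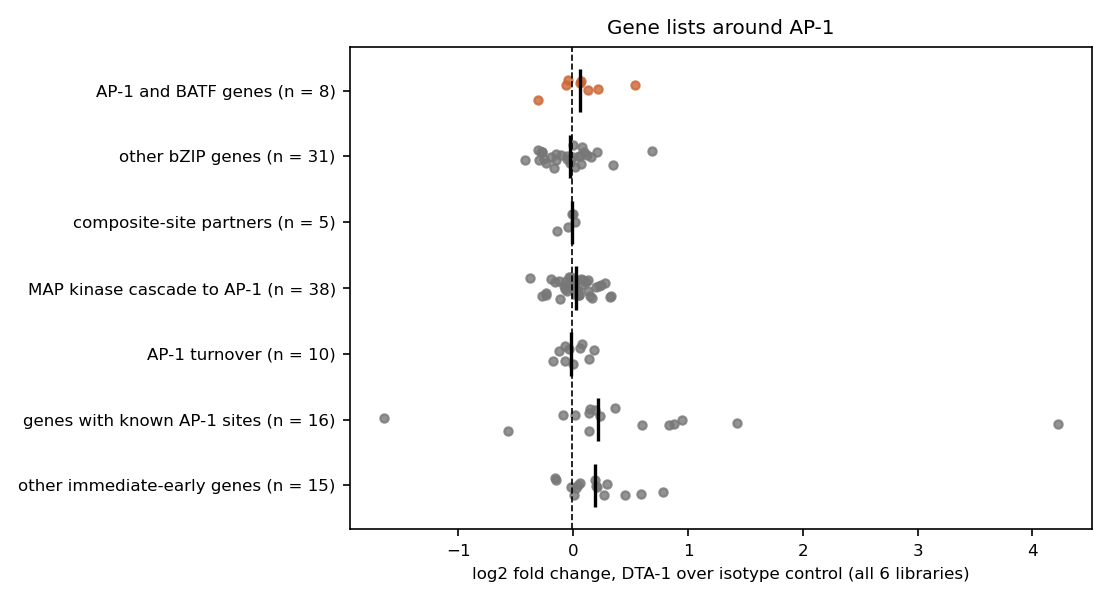
Log2 fold change of DTA-1 over isotype control with all 6 libraries, 1 point per tested gene (orange for the AP-1 and BATF genes, grey for the lists around them); black ticks are the medians and the dashed line is the median of all genes tested, −0.01. The AP-1 and BATF genes run from −0.31 to 0.54, and the lists with the highest medians are the genes with known AP-1 sites (0.21) and the other immediate-early genes (0.19).

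Genes of other cell types were measured in the same libraries, and some of them differed between the groups. The 7 fibroblast genes, of which 6 had over 3 counts in a library, summed to 2.82 to 9.38 normalized counts in isotype control and 0 to 3.98 with DTA-1. Among them Pdgfra (0.399 to 1.92 in isotype control) and Fbn1 (0.565 to 0.992) had 0 counts in all 3 DTA-1 libraries. Col1a1 had 1.70, 1.597 and 1.93 in isotype control and 0, 0.288 and 0.0941 with DTA-1. By DESeq2's Wald test all 3 fell (DESeq2 adjusted p = 0.00230, 0.00609 and 0.00344), whereas by edgeR with all libraries none was called (edgeR adjusted p = 0.452, 0.452 and 0.491). Without DTA-1 replicate 1 edgeR called all 3 lower (edgeR adjusted p = 0.0481, 0.0359 and 0.0325). The share called over all genes was then 0.744% (87 higher and 24 lower). The 3 genes passed the filter through isotype control alone and were picked from their list by their values. A lower level with DTA-1 was thus built into the choice, and the p-values of both tests are no support for it. In Pdgfra, Fbn1 and Col1a1, unlike Junb and Fos, DTA-1 replicate 1 also lay below isotype control. The collagen genes Col3a1 and Col1a2 overlapped between the groups. Col3a1 had 1.61, 0.0855 and 2.89 normalized counts in isotype control and 0, 0 and 2.89 with DTA-1 (edgeR adjusted p = 0.955). Col1a2 had 0.311, 0.114 and 2.66 against 0, 0 and 0.972 (edgeR adjusted p = 0.834). The 6 mast cell and eosinophil genes, of which 5 had over 3 counts in a library, summed to 9.61 to 13.3 in isotype control and 10.5 to 27.9 with DTA-1. Of the 4 endothelial genes Pecam1 held nearly all of the sum, 18.4 to 24.4 in isotype control and 10.6 to 18.3 with DTA-1, and Cdh5 had 0 counts. Without DTA-1 replicate 1 Pecam1 was called lower (edgeR adjusted p = 0.0132) and the mast cell gene Cpa3 higher (edgeR adjusted p = 0.0391), against 0.744% of all genes. Tpsb2, the other gene of the mast cell and eosinophil list that was tested, overlapped between the groups. It had 4.38, 6.04 and 5.02 normalized counts in isotype control and 3.66, 8.26 and 4.96 with DTA-1. The log2FC of Tpsb2 was 0.13 with all libraries and 0.36 without DTA-1 replicate 1 (edgeR adjusted p = 0.950 and 0.615). Fibroblasts can also express Fos and Jun, and the part of these cells in the values of Fos and Junb was not tested. Macrophage genes summed to 1.22 to 4.64 over the 6 libraries, neutrophil genes to at most 0.769, dendritic cell genes to 45.7 to 49.3 and T cell genes to 40.1 to 53.3. The T cell sum lay mostly in Cd3g (36.2 to 48.6) with Cd3e at 2.34 to 3.72 and Cd8a at 0, the dendritic cell sum in Xcr1, and the macrophage sum, in 5 of 6 libraries, largely in Adgre1 (0.256 to 3.77) with C1qb at 0. S100a8 and S100a9 of neutrophils were at 0 in all 6 libraries. Of the other T cell genes Cd3d had at most 1.23, Cd4 at most 0.972 and Cd8b1 at most 0.0941 normalized counts. Of the other dendritic cell genes Zbtb46 had at most 2.43, Flt3 at most 0.340 and Clec9a 0. The 2 sums, each mostly of 1 gene, are above the normalized counts of Fos, Fosl1, Fosl2 and Jun. The part of dendritic cells and T cells in the values of these genes was not tested. Adipocyte genes summed to at most 0.0320 and mesothelial genes to at most 0.125.

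By Pearson r of log2 CPM over the 6 libraries, the 3 genes nearest to Junb among 8723 genes with a mean of at least 10 CPM were Tgfb1 (0.994), Rrm2 (0.993) and Tpm3 (0.993). Tgfb1, the gene of the cytokine TGF-β1, had 359 to 395 normalized counts in isotype control and 381, 535 and 561 with DTA-1. It shared with Junb the level of DTA-1 replicate 1 near isotype control. The genes nearest to Jund were Ubald1, Dhrs11 and Fam19a3 (0.988 to 0.969) and those nearest to Batf were Arpp19, Ddx39 and Oat (0.997 to 0.978). With 6 libraries and so many genes compared, values of this size are a description of the pattern only.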

How the data were processed

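ILC2 RNA of 3 isotype control and 3 DTA-1 cultures (10 ng of input RNA each) was sequenced on a NextSeq instrument. The deposited values are expected counts per gene, without normalization, which the authors made with Partek software. Per the labels, the processing notes name bcl2fastq 2.17.1.14, STAR 2.5.3a and genome build mm10. The annotation release and the use of strand are not given in the sources used here. Library totals and the limit that a count of 0 allows are in the report.

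Expected counts were rounded to whole numbers. Genes were filtered with filterByExpr by group, which left 14361, and tested by edgeR's quasi-likelihood F test (edgeR 4.0.16, TMM, robust dispersions, R 4.3.3) with Benjamini-Hochberg adjustment over all genes tested. Confidence intervals (95%) came from the fold change and its F statistic. The deposited stop lies 1 base past the GENCODE mouse release 21 end for 47741 of 49719 shared symbols, so the last base is printed. RPKM used merged exons of that release. DESeq2 1.42.0 and limma 3.58.1 were alternatives, with other scaling, other filters, a replicate block and each library left out in turn. The non-overlap count without DTA-1 replicate 1 was added after the data were seen. Simulated counts with known changes were used to test the edgeR step. Plots were made with matplotlib 3.10.9.

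Named genes were the 10 members, Irf4, Irf8, Batf2, Jdp2, Maff, Nfil3, Bach2, Map3k8, Mapk8 and Mapk14, up to 2 genes per list with the smallest p and a mean of at least 1 CPM, and the genes nearest to the 3 most abundant members. Csf2, Mmp9, Prdx2 and the markers of ILC2s and of other cell types were named in addition, after their values were seen. Members and lists were chosen with earlier results of these data known. The B cell marker list is not reported here.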

Additional observations from a re-analysis of the deposited data

How the results depend on the processing

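The 8 tested genes were refitted under 13 alternatives each. Of the 104 log2 fold changes, 98 kept their direction and stayed uncalled. Junb without DTA-1 replicate 1 was the 1 that became called, and 5 changed sign, all with a library left out. Junb without isotype control replicate 3 (0.59) and Atf3 without DTA-1 replicate 2 (−0.68) passed 1.5-fold but were not called. Over the 6 fits with a library left out, the log2 fold change ran from 0.40 to 0.75 for Junb, from −0.68 to 0.36 for Atf3, from −0.029 to 0.13 for Fosl2 and from −0.12 to 0.0086 for Jund. The cause was not tested. The count of called members was 0 to 1 in these fits, and that of all genes 0 to 111, with 111 reached without DTA-1 replicate 1. Of the genes with known AP-1 sites 0 to 4 were called, and 0 to 3 of the 5 composite-site partners had a higher fitted level. Over all genes, 2 were called with no filter on low counts, 25 by DESeq2's Wald test and 337 at an unadjusted p with 1.5-fold. With the replicate number as a replicate block 1 gene of the whole table was called and 0 members. Same-numbered libraries did not deviate together (r of −0.01, 0.00 and 0.02), and not every library correlated best with its own number. Such values from 3 libraries a group cannot exclude that same-numbered cultures shared a source. The order of the levels per length changed with the genomic span as length, as given beside it. With 3 libraries a group, the spread limits Atf3 most (SE 0.51), and depth limits Fosb and Batf3.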
